A study of Homo sapiens with 3 samples.

Results

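The expressed genes of chromosome 4 are described here along its length, in a comparison of gemcitabine-resistant with parental bladder cancer cells. A gene was taken as expressed when the mean of the authors' group means for the resistant and the parental line was at least 10 normalized counts. That rule gave 536 genes on chromosome 4, among 1086 listed there and 14630 expressed genes in all. The chromosome was selected on these group means, because their median resistant-to-parental ratio was raised on it, so every resistant-to-parental value below is a description of that choice, and no test was run on it.

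All samples were of 5637, an established human urothelial carcinoma line, grown in RPMI medium with serum. The parental group carried the genotype label WT and the other group Gemcitabine Resistant, and both were labelled Untreated at harvest. Gemcitabine is a deoxycytidine analog that blocks DNA synthesis once it is phosphorylated in the cell. The label on treatment speaks of an acute treatment for making the resistant line, whereas the methods of the study describe repeated cycles of exposure and recovery with increasing drug, followed by isolation of single-cell clones. Each library is therefore 1 clone of 1 line, and clones of the resistant line share the selection they came through.

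Poly(A) RNA was sequenced, and 3 libraries with a sample label were used, 1 parental (Parental 1) and 2 resistant (Resistant 1 and Resistant 2). They held 14475531, 15836788 and 17461941 reads counted on genes, so that the floor of 3 reads corresponded to 0.214, 0.184 and 0.172 CPM, the reads of a gene scaled to the size of the library. The authors' group means cover further libraries that are not analysed here, and the results of the study speak of 3 independent clones of each line. Markers of epithelial cells were all listed and summed to 5654 CPM in Parental 1, 3841 CPM in Resistant 1 and 2808 CPM in Resistant 2, led by KRT8 with 2279, 1668 and 1009 CPM. KRT5, the keratin of basal urothelial cells, had 273, 9.80 and 13.8 CPM in the same order. The keratins made up most of the lower sums, and the urothelial factors GATA3, with 96.5, 64.1 and 61.2 CPM, and TP63, with 103, 65.2 and 73.4 CPM, were also lower in both resistant libraries. EPCAM had 286, 338 and 290 CPM and CDH1, which encodes E-cadherin, 341, 398 and 319 CPM. Of the other classes the immune marker PTPRC had 4, 3 and 2 reads, the endothelial marker CDH5 had 0, 0 and 1, and the fibroblast marker LUM had 0 in each, while COL1A1, also a fibroblast marker, was at 113, 97.0 and 60.9 CPM. The part of these differences in the values of chromosome 4 was not tested.

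A chromosome has a short and a long arm joined at the centromere. Apart from clusters of related genes, such as the CXC chemokines or the alcohol dehydrogenases of chromosome 4, genes that lie side by side usually differ in function, in promoter and in the cell types that express them. A regional difference in RNA is therefore read from many unrelated genes together, and single genes are then set against their neighbours. In the RNA of a whole culture, a change in all cells cannot be told apart from a larger change in some of them.

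Both kinds of value occur on chromosome 4, namely genes that followed their stretch and a few that stood far from it. The promoters of 4 of the latter are shown because, among genes with a promoter in the RefSeq table, these lay furthest from their neighbours in either direction. They are the 250 bases before the RefSeq start on GRCh38.p14, written 5′ to 3′ on the strand of the gene, with each CG dinucleotide in capitals. ANXA10 (chr4:168092287-168092536, plus strand) and UCHL1 (chr4:41256678-41256927, plus strand) were higher in the resistant cells, and ADH1C (chr4:99352747-99352996, minus strand) and SPON2 (chr4:1208845-1209094, minus strand) were lower.
ANXA10: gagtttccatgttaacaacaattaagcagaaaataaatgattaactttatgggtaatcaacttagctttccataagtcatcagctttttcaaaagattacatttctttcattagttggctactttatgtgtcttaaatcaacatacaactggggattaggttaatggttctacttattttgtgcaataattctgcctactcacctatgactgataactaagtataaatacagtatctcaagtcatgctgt
UCHL1: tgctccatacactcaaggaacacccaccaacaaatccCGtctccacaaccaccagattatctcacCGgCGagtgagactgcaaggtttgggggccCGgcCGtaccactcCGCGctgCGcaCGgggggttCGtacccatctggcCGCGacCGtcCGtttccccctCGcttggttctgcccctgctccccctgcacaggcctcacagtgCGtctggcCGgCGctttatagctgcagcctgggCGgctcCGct
ADH1C: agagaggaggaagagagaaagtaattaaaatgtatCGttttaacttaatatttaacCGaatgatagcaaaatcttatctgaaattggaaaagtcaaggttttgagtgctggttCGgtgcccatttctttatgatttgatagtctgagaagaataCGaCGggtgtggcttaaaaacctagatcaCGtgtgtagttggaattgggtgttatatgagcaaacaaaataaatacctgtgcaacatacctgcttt
SPON2: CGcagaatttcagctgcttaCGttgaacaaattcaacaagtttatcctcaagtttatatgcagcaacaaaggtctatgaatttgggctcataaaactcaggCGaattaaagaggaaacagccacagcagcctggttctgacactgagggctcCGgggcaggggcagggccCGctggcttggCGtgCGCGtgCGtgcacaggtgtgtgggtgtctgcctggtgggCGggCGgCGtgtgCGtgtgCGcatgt

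The 4 sequences differed widely in CG content. The ANXA10 promoter held 0 CG dinucleotides and the UCHL1 promoter 20, a number that 32.1% of 27305 promoters in the RefSeq table reached. ADH1C held 6 and SPON2 14, numbers reached by 61.3% and 44.7% of promoters. Of the 536 genes 434 had a promoter in the table, and their median was 21 CG dinucleotides against 11 over all promoters. The median was 22 in the 248 genes of the raised stretch defined below and 21 in the 186 genes beyond it. The letters TATAAA, searched on both strands, occurred once in each of the ANXA10, UCHL1 and SPON2 windows and 0 times in that of ADH1C. They occurred in 11.1% of all promoters and in 6.91% of those of the expressed chromosome 4 genes. The 27305 promoters were not limited to expressed genes. Neither this comparison nor that of CG content therefore sets chromosome 4 apart from expressed genes of other chromosomes. These counts describe letters in a window and not a bound factor.

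Expressed genes of chromosome 4 were higher in the resistant group, with a median log2 ratio of the authors' group means of 0.30, or 1.23-fold, and quartiles of 0.04 and 0.56. A pseudocount of 1 was added to each mean. The median over all 14630 expressed genes was 0.01. Against the single parental library, the median of chromosome 4 was 0.38 in Resistant 1 and 0.37 in Resistant 2, beside -0.01 and -0.02 over all genes. These clone ratios used counts scaled by the trimmed mean of M-values and share Parental 1 as their denominator.

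The shift was spread over many genes. Of the 536 genes 413 had a group-mean ratio above 0 (77.1%, against 51.4% of all expressed genes), and 344 were higher than Parental 1 in both resistant libraries (64.2%, against 33.8%). Those lower in both libraries numbered 86 (16.0%, against 35.8%), and the remaining 106 lay on either side of Parental 1. A log2 ratio of at least 1 was found for 40 genes (7.46%, against 3.21%) and of at most -1 for 8 (1.49%, against 3.15%). Since the ratio was what chose the chromosome, these shares are given without reading anything from them.

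Among the 23 chromosomes with at least 100 expressed genes, chromosome 4 had the highest median. Chromosome 7 followed at 0.15, chromosome 17 at 0.13 and chromosome 10 at 0.12. Shifts of similar size in the other direction were found on chromosome 12, with a median of -0.26 over 732 genes, chromosome 21, with -0.27 over 148, chromosome 20, with -0.28 over 370, and chromosome 11, with -0.31 over 812, so that a shift of this size was not particular to chromosome 4. The medians of the clone ratios were -0.24 and -0.29 for chromosome 20 and -0.39 and -0.31 for chromosome 11.

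**Figure D1:**
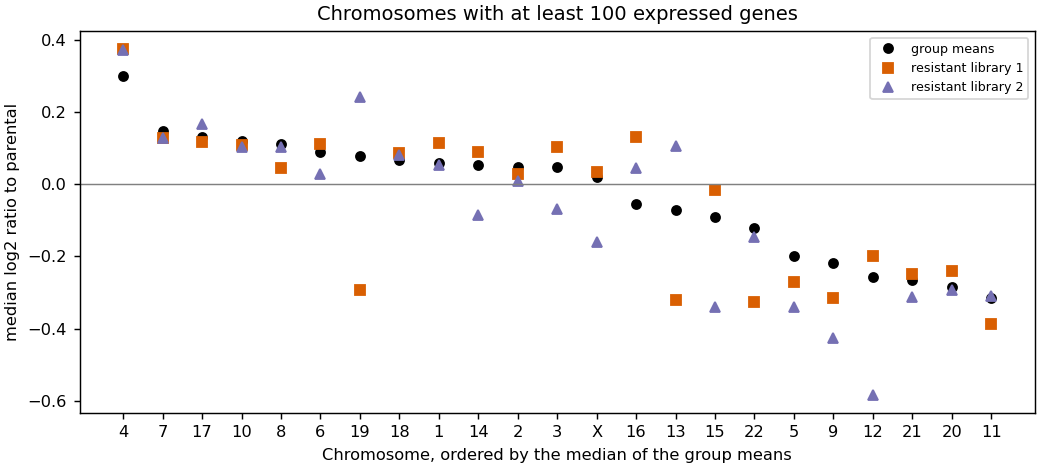
Median log2 ratio of expressed genes for each of the 23 chromosomes with at least 100 such genes, for the authors' group means and for each resistant library against Parental 1. Chromosome 4 lies highest by group means, at 0.30, and chromosome 11 lowest, at -0.31.

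The raised values were not spread evenly along the chromosome. Genes were ordered by start, in the table's coordinates, which the submitters' processing notes give as hg19, and the sequence of group-mean ratios was divided into stretches of constant median. A penalty of 2 times the natural log of the gene number was set for each added stretch. This gave 2 blocks with 1 change point, between TSPAN5 (99391518 to 99579780) and EIF4E (99792835 to 99851788). The proximal block ran from ZNF595, the first expressed gene of the short arm (53179 to 88099), to TSPAN5 on the long arm and held 303 genes. The distal block ran from EIF4E to FRG1 (190861943 to 190884359), near the end of the long arm, and held 233 genes.

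In the proximal block the median log2 ratio of the group means was 0.43, or 1.35-fold, with quartiles of 0.23 and 0.66. The clone ratios had medians of 0.56 (1.48-fold) in Resistant 1 and 0.58 (1.50-fold) in Resistant 2. In the distal block the medians were 0.10 for the group means, with quartiles of -0.08 and 0.31, and 0.11 and 0.03 for the 2 clones. Of the proximal genes 264 had a group-mean ratio above 0 (87.1%) and 249 were above Parental 1 in both libraries (82.2%), whereas in the distal block 149 (63.9%) and 95 (40.8%) were. Over all expressed genes 51.4% and 33.8% were. Only 23 proximal genes (7.59%) were below Parental 1 in both libraries, beside 63 distal genes (27.0%). The 2 blocks were drawn on these same group means, so the contrast between them is how they were defined.

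**Figure D2:**
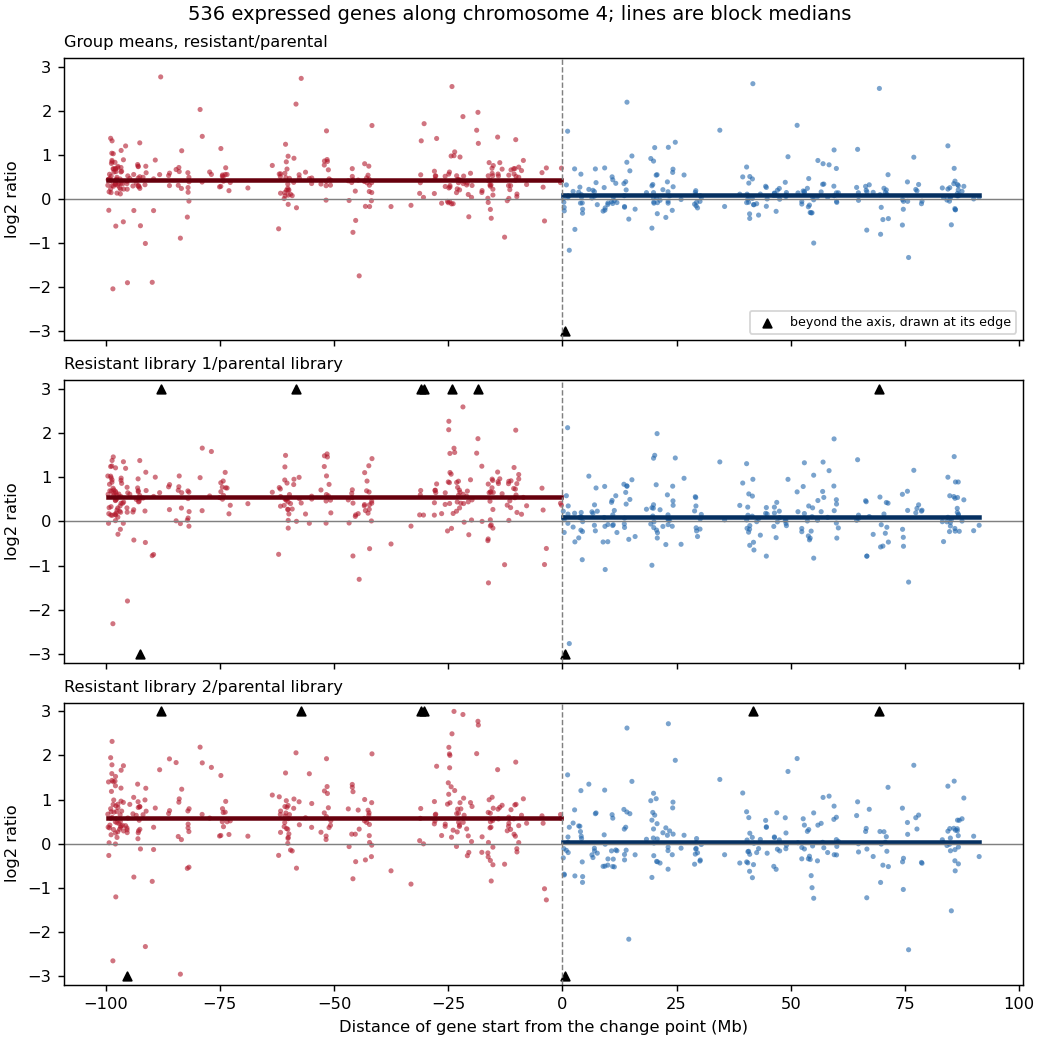
Log2 ratio of each expressed chromosome 4 gene (points) against its distance in Mb from the change point, for the authors' group means and for the 2 resistant libraries against Parental 1, with lines for the medians of the blocks. Points before the change point centre on 0.43 by group means and those after it on 0.10.

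The blocks were alike in gene type and length and differed in level. Protein-coding genes made up 272 of the 303 proximal genes (89.8%) and 209 of the 233 distal genes (89.7%), and the median gene length in the table was 3579 and 3841 bases. In Parental 1 the median level per length was 4.39 FPKM in the proximal and 2.89 FPKM in the distal block. In Resistant 1 and 2 the proximal median was 7.16 and 7.27 FPKM, and the distal median 4.04 and 3.09 FPKM. The FPKM values carry the authors' own scaling, without the trimmed mean used for the CPM.

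Proximal genes of low and high abundance had similar ratios. Genes with a mean of 10 to 100, 100 to 1000 and over 1000 normalized counts had median log2 ratios of 0.38 (87 genes), 0.45 (164 genes) and 0.43 (52 genes), and 49 of the 52 most abundant lay above 0 (94.2%). In the distal block the medians of the same classes were 0.21 (79 genes), 0.08 (136 genes) and 0.05 (18 genes). Genes that are not protein-coding had medians of 0.56 in the proximal block (31 genes) and 0.15 in the distal block (24 genes).

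As a share of all reads, the proximal genes held 1.12% in Parental 1 (162384 reads, 95% Wilson interval 1.12 to 1.13), 1.65% in Resistant 1 (261640 reads, 1.65 to 1.66) and 1.70% in Resistant 2 (296010 reads, 1.69 to 1.70). The distal genes held 0.586% (84785 reads, 0.582 to 0.590), 0.647% (102415 reads, 0.643 to 0.651) and 0.605% (105643 reads, 0.601 to 0.609). The 2 resistant libraries thus lay close to each other and above Parental 1 for the proximal genes, and Resistant 2 lay between the others for the distal genes. The intervals cover counting error only and not the spread between clones.

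The proximal block crossed the centromere without a step. No gene was listed between SNX18P25, ending at 49591546, and DCUN1D4, starting at 52709166, a gap of 3.12 Mb around the centromere. The 170 genes before it had a median of 0.46, with 153 above 0 (90.0%), and the 133 genes after it had a median of 0.42, with 111 above 0 (83.5%). Clone medians were 0.56 and 0.65 before the gap and 0.57 and 0.56 after it.

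Windows of 5 Mb gave a finer view, with 35 of 39 windows holding at least 5 genes. The 17 windows that lay wholly before the change point had medians from 0.31 to 0.65 by group means, all of them at least 0.3. Of the 17 windows after it none reached 0.3, and their medians ran from -0.01 to 0.29. Over the other chromosomes 17 of 513 windows (3.31%) reached 0.3. The first window, the 5 Mb at the tip of the short arm, held 60 genes, of which 55 lay above 0, with medians of 0.45, 0.58 and 0.59 for the group means and the 2 clones.

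The clones gave much the same picture with more scatter. Proximal window medians ran from 0.29 to 0.78 in Resistant 1, with 16 of 17 at 0.3 or more, and from 0.40 to 1.10 in Resistant 2, with all 17. Distal medians ran from -0.16 to 0.47 in Resistant 1, with 3 of 17 at 0.3 or more. In Resistant 2 they ran from -0.25 to 0.33, with 1 of 17 at 0.3 or more and 8 below 0. The window with the change point (95 to 100 Mb, 9 genes) had medians of 0.27 by group means, 0.23 in Resistant 1 and -0.11 in Resistant 2, each within the range of the distal windows.

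**Figure D3:**
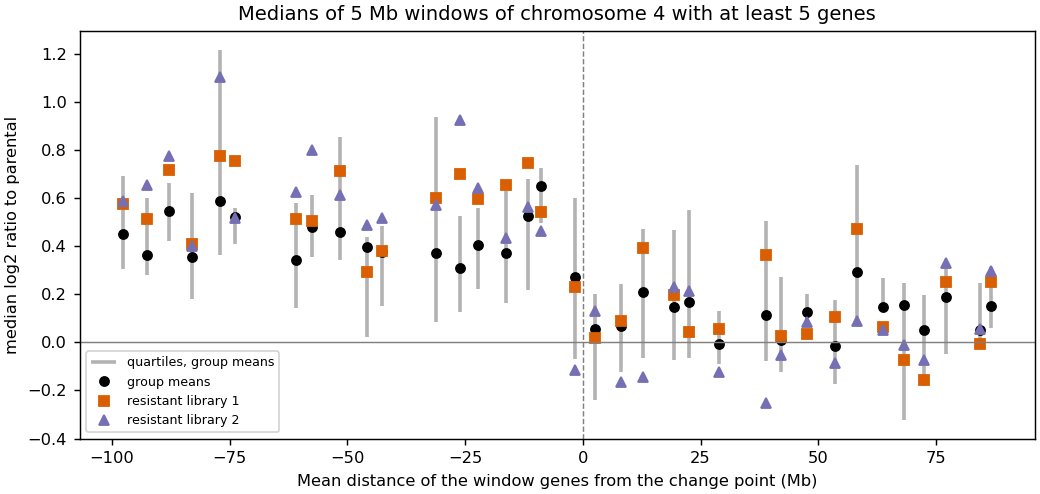
Median log2 ratio in 5-Mb windows of chromosome 4 holding at least 5 expressed genes, against distance in Mb from the change point, for the authors' group means and the 2 resistant libraries against Parental 1. By group means the windows before the change point lie between 0.31 and 0.65 and those after it between -0.01 and 0.29.

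The genes around the change point, given in order, did not mark a sharp step. SMARCAD1, a chromatin remodeler, had 36.8 CPM in Parental 1 and 62.1 and 57.0 CPM in the resistant libraries, and its group-mean ratio was 0.60. PDLIM5, a cytoskeletal PDZ and LIM protein, had 192, 229 and 264 CPM and a ratio of 0.27. Both lay above Parental 1 in the 2 resistant libraries.

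The next genes were less uniform. BMPR1B, a bone morphogenetic protein receptor, had 3.56, 1.78 and 1.72 CPM and a group-mean ratio of -0.49. UNC5C, a netrin receptor, had 0.783, 0.490 and 0.286 CPM in the 3 libraries, although its group-mean ratio was 0.71. RAP1GDS1, an exchange factor for small GTPases, had 23.4, 31.2 and 37.0 CPM and a ratio of 0.38. Each library therefore held raised and lowered genes in this stretch.

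TSPAN5, a tetraspanin, was the last gene of the proximal block, with 36.9, 47.6 and 54.9 CPM and group means of 446.5 in the parental and 728.0 in the resistant line, a ratio of 0.70. EIF4E, the cap-binding translation factor and the first gene of the distal block, had 39.4, 46.3 and 31.5 CPM and group means of 610.3 and 615.4, a ratio of 0.01. METAP1, a methionine aminopeptidase, followed with 57.8, 61.5 and 53.4 CPM (-0.07). ADH5, a class III alcohol dehydrogenase, had 198, 166 and 122 CPM (-0.19). The step therefore lay at different genes when single libraries were used, at 95.3 Mb, between SMARCAD1 and PDLIM5, for Resistant 1 and at 95.5 Mb, between PDLIM5 and BMPR1B, for Resistant 2.

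At the ends of the chromosome, ZNF595, a zinc finger gene, had 1.71 CPM in Parental 1 and 3.55 and 2.75 CPM in the resistant libraries. FRG1, a nuclear protein gene with near-identical copies elsewhere in the genome, had 16.8, 15.8 and 13.7 CPM, and its reads may be shared with those copies. The ratio of Resistant 2 to Resistant 1 showed no change point, with medians of 0.003 in the proximal and -0.07 in the distal block.

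Most of the 6 genes with the highest mean normalized counts, 5 of them proximal, had group-mean ratios between 0.29 and 0.46. The log2 ratios of single libraries varied more, at 0.49 and 1.03 in Resistant 1 and 2 for FAT1 and 0.52 and 0.11 for MRFAP1. WDR1, which promotes actin disassembly, had 87.4 FPKM in Parental 1 and 138 and 116 FPKM in the resistant libraries, with a group-mean ratio of 0.46. WHSC1 (NSD2), a histone H3 lysine methyltransferase, had 38.1, 46.2 and 58.3 FPKM and group means of 4301 and 5818, a ratio of 0.44. RPL9, a protein of the large ribosomal subunit, had 132, 202 and 171 FPKM (0.34). In all 3 genes both resistant libraries lay above Parental 1.

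MRFAP1, a partner of MORF4 family proteins, had 124, 189 and 138 FPKM, with a ratio of 0.30. FAT1, a giant protocadherin of the distal block, had 13.8, 20.7 and 29.2 FPKM (0.29). HNRNPD, an RNA-binding protein that acts on AU-rich messages, had the highest mean normalized count of the 536 and went the other way in the libraries, with 166 FPKM in Parental 1 and 131 and 148 FPKM in the resistant libraries. Its group means were 8980 and 9112, a ratio of 0.02.

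Genes with a known part in the handling of gemcitabine and nucleotides lie on both sides of the change point. DCK, deoxycytidine kinase, which adds the first phosphate to gemcitabine, lies in the proximal block (71858255 to 71896631). It had 12.6 CPM in Parental 1 and 19.8 and 20.1 CPM in Resistant 1 and 2, and its group means were 176.9 and 255.1, which gave a ratio of 0.53. DCK lay close to the median of its block in all 3 ratios, at 0.53, 0.65 and 0.67 against 0.43, 0.56 and 0.58. DCTD, deoxycytidylate deaminase, which acts on the monophosphate, lies in the distal block and had 70.8, 70.3 and 68.7 CPM and group means of 998.3 and 985.1 (-0.02).

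ABCG2, a drug efflux pump, had 2.56 CPM in Parental 1, 6.06 in Resistant 1 and 2.98 in Resistant 2, so that the clones differed from each other more than Resistant 2 did from Parental 1. PPAT and PAICS, enzymes of purine synthesis that share a bidirectional promoter, had ratios of 0.45 and 0.17. PGM2, a phosphopentomutase, had a ratio of 0.51, and NUDT9, an ADP-ribose hydrolase, 0.66. All 6 proximal members of this list of 8 were above Parental 1 in both libraries, as were 82.2% of all proximal genes. The list as a whole, with 7 of 8 genes above 0, had a median of 0.52, beside 77.1% and 0.30 for all expressed genes of the chromosome and 87.1% and 0.43 for the proximal block. BDH2, a dehydrogenase of the distal block linked to ketone body metabolism and counted below in the mitochondrial list, had 6.69, 5.70 and 3.61 CPM (-0.32).

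Genes of replication, mitosis and DNA repair lay in both blocks. Of the 13 proximal members 12 had a group-mean ratio above 0, with a median of 0.44, beside 87.1% of all proximal genes and their median of 0.43. RFC1, the large subunit of the clamp loader, had 65.8, 120 and 116 CPM (0.68). PDS5A, a cohesin regulator, had 155, 236 and 245 CPM (0.47). GAK, a kinase of clathrin uncoating and spindle function, had 120, 193 and 272 CPM (0.81). In these 3 genes both resistant libraries lay above Parental 1, whereas NCAPG, a condensin subunit, had 60.3, 55.9 and 41.6 CPM (-0.04).

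Of the 10 distal members 3 had a ratio above 0, with a median of -0.08, beside 63.9% of all distal genes and their median of 0.10. All 10 were lower in Resistant 2 than in Resistant 1, by a median log2 difference of -0.66 against -0.07 for the distal block, where 41.6% of genes were higher in Resistant 2. Of the 13 proximal members 8 were lower in Resistant 2, with a median difference of -0.08. For the whole proximal block the median difference was 0.003, and 51.2% of genes were higher in Resistant 2. HMGB2, a chromatin protein abundant in dividing cells, had 219, 171 and 107 CPM. CENPE, a kinesin of the kinetochore, had 39.6, 39.4 and 23.5 CPM. CCNA2, the cyclin of S and G2 phase, had 56.8, 54.0 and 38.0 CPM. In CENPE and CCNA2 Resistant 1 was near Parental 1 and Resistant 2 below both. MND1, a recombination factor, had 6.48, 6.98 and 3.21 CPM. With 1 library per clone, this difference has no replicate check.

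Of 18 chemokines and EGF-like ligands looked for 15 were in the table and 9 of them expressed, all 9 in the proximal block, and here the group means and the libraries parted. By group means 5 of them were above 0, beside 87.1% of all proximal genes, with a median of 0.25. In the libraries 8 of 9 were above Parental 1 in both, near the 82.2% of the block, with medians of 0.90 and 1.38 beside 0.56 and 0.58 for the block. CXCL1, a neutrophil attractant, had 10.5 CPM in Parental 1 and 51.1 and 48.1 CPM in the resistant libraries, but a group-mean ratio of 0.25. IL8 (CXCL8), of the same class, had 16.7, 31.2 and 43.6 CPM and group means of 457.3 in the parental and 432.8 in the resistant line.

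CXCL6 had 13.7, 58.2 and 29.9 CPM (0.57), and CXCL5 had 48.4, 89.1 and 198 CPM (0.62). For these 4 chemokines Parental 1 lay lowest of the 3 libraries. EREG, a ligand of the EGF receptor family, had 84.9, 179 and 208 CPM and a group-mean ratio of 0.98, the highest of the 9. AREG, another such ligand, had 13.9, 12.4 and 15.4 CPM (-0.11), with Parental 1 between the resistant libraries.

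Of the interferon and innate immunity genes all 7 proximal members were above 0 by group means and above Parental 1 in both libraries, with a median ratio of 0.52. Of all proximal genes 87.1% and 82.2% were, so these counts were near those of the block. HERC5, the ligase that attaches ISG15, had 3.63 CPM in Parental 1 and 15.4 and 13.2 CPM in the resistant libraries, with a ratio of 1.35. LAP3, an aminopeptidase, had 42.5, 68.7 and 71.0 CPM (0.60). Of the 8 distal members 3 were above 0 by group means, beside 63.9% of all distal genes. In the libraries 4 were above Parental 1 in both and 3 below in both, beside 40.8% and 27.0% of all distal genes. By group means DDX60L, a putative helicase, was lowest, with 13.0, 8.70 and 7.05 CPM (-0.80), and IRF2 highest, with 21.6, 31.9 and 27.4 CPM (0.35).

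Of the growth factor receptors and ligands 2 of 5 proximal and 4 of 4 distal members were above 0 by group means, beside 87.1% and 63.9% of all genes of the blocks. In the libraries 2 of 5 and 3 of 4 were above Parental 1 in both, beside 82.2% and 40.8%. Among these were FGF5 of the proximal block, with 4, 73 and 38 reads (1.27), and FGF2 of the distal block, with 4.06, 7.10 and 7.16 CPM (0.61). FGFR3, a receptor often mutated in bladder cancer, had 16.2 CPM in Parental 1, 17.9 in Resistant 1 and 6.99 in Resistant 2, and a group-mean ratio of -0.61. FGFBP1, a carrier that releases fibroblast growth factors, had 17.4, 16.8 and 2.18 CPM (-0.88). In both genes Resistant 1 was near Parental 1 and Resistant 2 was lower. PDGFRA had 12, 5 and 19 reads and a ratio of -1.74, so that its libraries did not share a direction.

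The mitochondrial list had 7 of 7 proximal and 5 of 9 distal members above 0, with medians of 0.37 and 0.08, near the 87.1% and 63.9% of all genes of the blocks and their medians of 0.43 and 0.10. LETM1, a cation exchanger of the inner membrane, had 114, 179 and 206 CPM (0.62). HADH, an enzyme of fatty acid oxidation in the distal block, had 72.7, 67.2 and 51.0 CPM (-0.25). LETM1 was thus higher in both resistant libraries and HADH lower in both. Of the 18 alcohol dehydrogenase and UGT genes looked for 7 were in the table and 4 of them expressed, with UGDH of the proximal block above 0 and ADH1C, ADH5 and UGT8 of the distal block below 0. The adhesion list had 8 of 10 members above 0 (median 0.20), and the Wnt and Notch list 4 of 5 (median 0.25), near the 77.1% of all expressed genes of the chromosome.

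**Figure D4:**
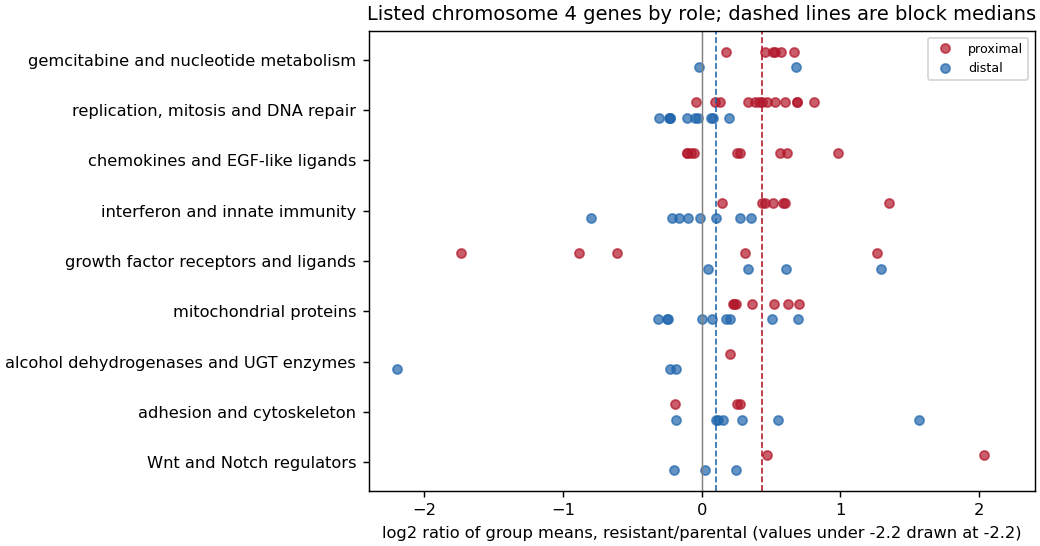
Log2 ratio of the authors' group means for the expressed chromosome 4 members of 9 lists of genes by role, with proximal and distal genes marked apart, dashed lines at the block medians and ADH1C, at -6.34, drawn at the left edge. For replication, mitosis and DNA repair 12 of 13 proximal and 3 of 10 distal genes lie above 0.

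Some genes lay far from their neighbours. A gene was taken to depart from its 5-Mb window when it differed from the median of the window's other genes by at least 1 on the log2 scale, in the same direction, in the group means and in both clone ratios. This held for 19 of the 531 genes in windows with at least 5 genes (3.58%). There were 12 above (2.26%, against 1.94% over all chromosomes) and 7 below (1.32%, against 1.48%). Of the proximal genes 8 were above and 5 below, and of the distal genes 4 and 2. When the 14 nearest genes stood in for the window, TMPRSS11D and WWC2-AS2 no longer departed.

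ANXA10, an annexin expressed in gastric and urothelial epithelium, was the distal gene furthest above its window. It had 2.35 CPM in Parental 1 and 33.7 and 27.4 CPM in Resistant 1 and 2, and its group means were 51.93 and 300.8, which gave a ratio of 2.51. Its promoter, shown above, is the one with 0 CG dinucleotides. DAPP1, an adaptor of B cell receptor signalling, had 80, 409 and 295 reads (1.54), and SPRY1, an inhibitor of receptor tyrosine kinase signalling, had 7.69, 20.9 and 28.6 CPM (1.29). In these 3 distal genes the 2 resistant libraries lay well above Parental 1.

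Among the proximal genes, PRDM8, a transcriptional repressor, had 27.3, 100 and 187 CPM and a group-mean ratio of 1.97. SOWAHB, an ankyrin repeat gene, had 6.83, 41.6 and 52.4 CPM (1.87). IGFBP7, a secreted binding protein, had 4.98, 13.5 and 20.6 CPM (1.67). Resistant 2 was the higher of the resistant libraries in all 3. UCHL1, a deubiquitinase of neurons and neuroendocrine cells, had 3, 95 and 19 reads, which put Parental 1 at the floor and Resistant 1 above Resistant 2, with group means of 7.071 and 34.98 (2.16).

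A pair of serine proteases of epithelial surfaces had 0 reads in Parental 1. TMPRSS11D had 68 and 140 reads in the resistant libraries, at least 19.5-fold and 37.6-fold higher when Parental 1 was set to its floor of 3 reads. TMPRSS11E had 51 and 24 reads, at least 14.6-fold and 6.44-fold higher. The authors' parental mean for TMPRSS11D was 23.06 and that for TMPRSS11E 5.954, with group-mean ratios of 1.32 and 1.71, so the parental means draw on reads outside Parental 1 and these log2 ratios are smaller differences than the bounds against Parental 1 alone.

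The other genes above their windows were noncoding RNAs. RP11-281P23.2 had 0.427, 11.6 and 11.5 CPM, with the highest group-mean ratio of the 536 genes, 2.77. AC142293.3 had 3, 37 and 26 reads (2.55) and WWC2-AS2 had 6, 15 and 20 reads (1.21). In each of the 3 both resistant libraries lay above Parental 1.

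Of the genes below their windows ADH1C, a class I alcohol dehydrogenase, was the furthest (100257649 to 100274184, distal). It had 134 reads in Parental 1, 0 in Resistant 1 and 1 in Resistant 2, at least 51.9-fold lower in Resistant 1 with a floor of 3 reads, and group means of 102.3 and 0.279 (-6.34). The table lists it as a polymorphic pseudogene. SPON2, a secreted matrix protein, had 1.78, 0.306 and 0.229 CPM (-2.03). It lies among the 60 genes of the first window, whose median was 0.45.

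NSG1, an endosomal protein of neurons, had 26.9, 7.66 and 3.27 CPM and group means of 462.9 and 123.8 (-1.89). HPGD, which inactivates prostaglandins, had 3.92, 1.47 and 0.688 CPM (-1.32). Resistant 2 was the lowest library for both. SLC2A9, a urate transporter, had 8, 5 and 5 reads (-1.88), too few to tell its libraries apart. MAPK10, the kinase JNK3, had 6.83, 3.43 and 4.93 CPM (-0.86), and RASL11B, a small GTPase, had 3.63, 2.08 and 2.06 CPM (-0.75).

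**Figure D5:**
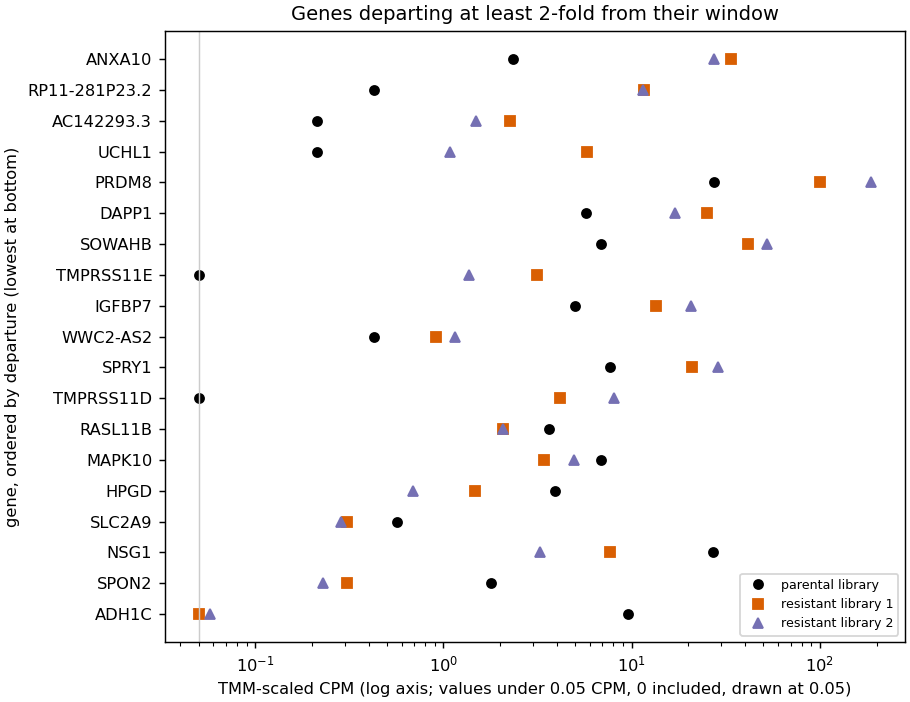
CPM on a log axis in Parental 1, Resistant 1 and Resistant 2 (1 symbol each) for the 19 chromosome 4 genes that depart from their 5-Mb window, 12 above it and 7 below it, with values of 0 drawn on the grey line. ADH1C goes from 9.54 CPM in Parental 1 to 0 and 0.057 CPM in the resistant libraries, and ANXA10 from 2.35 CPM to 33.7 and 27.4 CPM.

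Overlapping genes limit some of these values, since the sources used here do not say whether counting used strand. Of the 536 genes 267 (49.8%) overlapped another listed gene, 229 of them on the opposite strand. Among the departing genes NSG1, SLC2A9, RP11-281P23.2, IGFBP7, TMPRSS11D, AC142293.3 and PRDM8 overlapped an opposite-strand gene, and their reads may belong in part to it.

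The 2 resistant clones also differed from each other at single genes. Resistant 2 was at least 2-fold above Resistant 1 for 25 genes (4.66%, against 6.36% of all expressed genes) and at least 2-fold below for 16 (2.99%, against 3.51%). The clones are 1 library each, so these are differences between libraries. Of the genes whose mean reached 50, SORCS2, a sortilin-like receptor, differed most upwards, by 2.90. It had 56.5 CPM in Parental 1, 6.92 in Resistant 1 and 52.0 in Resistant 2, so that Resistant 1 was the one that stood apart.

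PARM1, a mucin-like membrane protein, had 1.57, 5.08 and 12.9 CPM, and SLIT2, a ligand of Robo receptors, had 2.28, 4.59 and 10.6 CPM. CXCL3 had 7.33, 9.74 and 24.3 CPM, and CXCL5, given above, also belonged to the 5 largest differences in this direction. In these 4 genes the order was the same, with Parental 1 lowest and Resistant 2 highest. In the other direction FGFBP1 differed by -2.91 and FGFR3 by -1.35. HTRA3, a secreted serine protease, had 7.19, 5.14 and 1.38 CPM. BMP3, a bone morphogenetic protein, had 4.41, 10.6 and 3.84 CPM, and the pseudogene AC004057.1 had 5.62, 4.23 and 1.20 CPM, whose reads may belong to a near-identical copy. BMP3 was high in Resistant 1 alone, whereas HTRA3 and AC004057.1 were low in Resistant 2.

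The genes nearest to the expression limit had ratios of either sign. Just inside, NPY1R, a neuropeptide Y receptor, had a mean of 10.0 and a ratio of 1.13, RP11-360F5.3 had 10.1 (0.85) and AC097658.1 had 10.1 (-0.16). Just outside were the pseudogene EEF1A1P9 at 9.92 and CFI, complement factor I, at 9.61 (-1.13).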

How the data were processed

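Poly(A) RNA of 1 parental and 2 resistant clones was analysed from a table of 29960 genes. The authors deposited raw read counts and FPKM per library, and group means of normalized counts (a signal value, used as the authors' means). The methods of the study name DESeq2 for their comparison. Read calling used CASAVA 1.8 and the build was hg19 per the labels, in the submitters' processing notes. The aligner, counter and annotation are not given in the sources used here. The table also holds the authors' log2 fold changes and p-values, which were not used, nor were 6 columns of per-library values without a matching sample label. Of the 536 genes 529 matched GENCODE 29 (GRCh38) by identifier and 0 had the same start there.

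Counts were scaled by TMM (edgeR 4.0.16, R 4.3.3; factors 0.970, 1.03 and 1.00), brought to the mean effective library size and given a pseudocount of 1. Expressed genes had a mean of the group means of at least 10. Change points were found by optimal partitioning on absolute deviations, with at least 10 genes per block and a penalty of 2 times log n. No test was run across samples, because chromosome 4 was chosen for this contrast. Precision follows from 14475531, 15836788 and 17461941 reads on genes, with Wilson 95% intervals and a floor of 3 counts that cover counting error only. The labels do not say that the libraries came from separate cultures.

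The rule for naming genes took the first and last of each block, the 8 furthest above and below their windows, the 6 most abundant, the 5 with the largest difference between clones in each direction, expressed members of 9 lists of 136 genes, and those nearest the expression limit, of which 1 is not reported here, and not every gene it covers is described. The other departing genes and those on either side of the change point were named after their values were seen. The chromosome, the lists and the rules were chosen with earlier results of these data known. Alternatives covered scaling, pseudocount, filter, thresholds, single clones and left-out libraries. Python 3.11.15, numpy 2.4.6, pandas 2.3.3, scipy 1.17.1 and matplotlib 3.10.9 were used, and DESeq2 1.42.0 gave alternative size factors.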

Additional observations from a re-analysis of the deposited data

How the results depend on the processing

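The median log2 ratio of the group means over chromosome 4, 0.30, stayed above 0 in all settings run: 0.29 with a pseudocount of 5, 0.29 with a filter of at least 50, 0.33 with no filter, 0.30 centred on genes off chromosome 4, 0.29 for protein-coding genes, 0.41 when the 3 libraries replaced the group means and 0.29 without departing genes. The median of the 3 libraries, 0.41, ran from 0.37 to 0.38 with 1 resistant library left out. For Resistant 1, at 0.38, DESeq2 size factors gave 0.38, total counts 0.46 and a pseudocount of 5 0.37. For Resistant 2, at 0.37, the same settings gave 0.39, 0.41 and 0.36. The 40 genes with a ratio of at least 1 became 20 with the filter of 50 and 78 with the 3 libraries, and the 8 of at most -1 became 3 with the filter. The change point at 99.6 Mb was found at every penalty and filter tried, and moved to 95.3 Mb with the ratio of Resistant 1 and 95.5 Mb with that of Resistant 2. The medians before it, 0.43, were then 0.57 and 0.59, and that after it, 0.10, was 0.030 for Resistant 2. At a 1.5-fold limit the departing genes numbered 32 above, in place of 12, and 22 below, in place of 7. Against the 14 nearest genes there were 14 above, of which 10 were shared (TMPRSS11D and WWC2-AS2 were lost, and ANTXR2, CLGN, FGF5 and PCDH10 added), and 9 below, with all 7 shared and HTRA3 and RNF175 added. PDGFRA, at -1.74 by the group means, was -0.27 with the 3 libraries. Against Parental 1 it was -1.31 for Resistant 1 alone and 0.33 for Resistant 2 alone. The cause of these shifts was not tested, apart from the fewer genes left by a filter. Of the 129 genes that the naming rule covers, not all of them described above, 114 kept the sign of the group means with the 3 libraries. For the ratio to Parental 1 of Resistant 1 alone 111 did, and for that of Resistant 2 alone 106. The settings without departing genes, and those on the count of 413 genes above 0 by group means, were added after seeing the data. Against Parental 1 that count was 400 with the 3 libraries, 410 for Resistant 1 alone and 384 for Resistant 2 alone. No paired analysis was made because the labels do not pair parental with resistant clones. A single parental library gives no spread for that group, and low genes such as SLC2A9 rest on few reads.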
